A study of Mus musculus with 18 samples.

Results

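The 7 genes described here are stress-response mRNAs known for upstream open reading frames (short frames that start in the leader, ahead of the main coding region): Atf4, Atf5, Ddit3, Ppp1r15a, Ppp1r15b, Ifrd1 and Ibtk. They were taken by name from the gene column of all 18 count tables, where all 7 of 7 were found among 14002 listed genes. RAW264.7 is an established mouse line with macrophage properties. Its cells were fed 200 µM 4-thiouridine (4sU), which is built into RNA in place of uridine and so marks transcripts made after its addition, and each lysate gave 1 library of fragmented cytoplasmic RNA (input) and 1 of RNase I footprints from the monosome fractions. Experiment 1 had lysates at 0, 20, 40, 60, 90 and 120 min of 4sU and experiment 2 at 20, 30 and 40 min, so that only 20 and 40 min had 2 lysates. No drug or stressor is named in the labels: the 0 min lysate of experiment 1 is the only one without 4sU, and cycloheximide was present in the wash and lysis buffers of every lysate. The series' stated purpose was ribosome density on newly made mRNA.

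The libraries held 6230562 to 87536081 reads, with experiment 2 the deeper in both materials. The 7 genes together held 1023 CPM (counts scaled to a common library total) in input and 291 in footprints at 0 min, and 651 and 147 at 120 min of experiment 1. All 9 macrophage markers checked were listed (medians of 2.37 to 3979 normalised CPM in input). For T and B cells, epithelium, fibroblasts, endothelium and other types, 8 of 21 markers appeared, none with a median above 0.955 normalised CPM. Normalised CPM here is CPM after scaling by edgeR's TMM factors over all 18 libraries, so that a ratio of footprints to input of 1 is near the typical gene. The labels do not state whether lysates are separate cultures, so the p-values speak only to the spread among these 9 lysates, which may be technical. In bulk lysates fewer cells holding an mRNA and less of it per cell cannot be told apart, and minutes of labelling are also minutes of exposure to 4sU.

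In the integrated stress response, kinases phosphorylate the initiation factor eIF2, which lowers the supply of initiator tRNA to scanning ribosomes. Upstream frames usually hold ribosomes away from the main start codon of these mRNAs, and under phosphorylated eIF2 more scanning ribosomes pass them, so that the main protein is made while most translation falls. ATF4 and ATF5 are transcription factors made in this way, and DDIT3 (CHOP) is a transcription factor further along the same response. PPP1R15A (GADD34) and PPP1R15B (CReP) are the induced and the constitutive subunit that bring protein phosphatase 1 to eIF2. IFRD1 is a transcriptional co-regulator whose mRNA is known to be kept unstable through its upstream frame, and IBTK is a large BTB-domain protein known as an inhibitor of Bruton's tyrosine kinase. In unstressed cells these mRNAs are known to be translated poorly for their amount.

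The leaders were read from the GENCODE vM21 transcripts (build GRCm38), taking for each gene the transcript with the longest coding region and, between equals, the longest transcript. Upstream AUGs numbered 3 in Atf4, 2 in Atf5, 2 in Ddit3, 7 in Ppp1r15a, 3 in Ppp1r15b, 1 in Ifrd1 and 4 in Ibtk. The leaders had 186 (Ddit3) to 764 bases (Ppp1r15a). The median leader was 164 bases over the 10053 genes with such a transcript that were tested for their footprint to input ratio. In Atf4 the first frame has 36 codons, the second 3, and the third 59 and runs 83 bases past the start of the coding region. Atf5 has the same layout with 2 frames, of 3 codons and of 58 codons, the second running 56 bases past the main start. In Ppp1r15a the seventh frame (50 codons) overlaps the main start by 76 bases, while Ddit3 has a pair of in-frame AUGs (34 and 31 codons) that end 26 bases before it. The windows below show 30 bases, 12 before the AUG and 15 after it, for every AUG of Atf4 and Atf5 and for the upstream AUG nearest the main start in Ddit3, Ppp1r15b, Ifrd1 and Ibtk, since these are the starts a scanning ribosome meets before the coding region. Capitals mark upstream or main AUGs, written ATG as DNA on the mRNA strand, 5′ to 3′.
Atf4 frame 1: cacttttctctcATGgggcctttaggacga
Atf4 frame 2: cttgcggccaccATGgcgtattagaggcag
Atf4 frame 3: ccggcctaagccATGgcgctcttcacgaaa
Atf4 main: aagccccacaacATGaccgagatgagcttc
Atf5 frame 1: tccgcccgcgcaATGgctctgtagccgcga
Atf5 frame 2: cttttcgccgccATGgagtcctccaccttc
Atf5 main: tgtgtcacagccATGtcactcctggcgacc
Ddit3 frame 2: atcATGttgaagATGagcgggtggcagcga
Ppp1r15b frame 3: tccctagccgggATGgacctaaccgcggtc
Ifrd1 frame 1: ctagagagaaacATGtatcgtttccgctcg
Ibtk frame 4: cttgtatttgatATGaactttatagaatta

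In GRCm38 the windows of Atf4 frames 1 to 3 and of its main start lie at chr15:80255291-80255320, chr15:80255570-80255599, chr15:80255669-80256219 and chr15:80256287-80256316 on the plus strand, the third crossing an exon junction. Those of Atf5 lie at chr7:44816520-44816549, chr7:44815270-44816418 (across a junction) and chr7:44815149-44815178 on the minus strand. Those of Ddit3 and Ppp1r15b lie at chr10:127290826-127290855 and chr1:133131505-133131534 on the plus strand, and those of Ifrd1 and Ibtk at chr12:40223141-40223170 and chr9:85743902-85743931 on the minus strand. All but the windows of the main starts lie in 5′ untranslated sequence. Those of Ppp1r15b, Ifrd1 and Ibtk share an exon with the main start. A purine 3 bases before the AUG and a G right after it are the bases that most favour a start codon. Of the 22 upstream AUGs of the 7 genes, 17 have the purine (77.3%), 10 have the G and 7 have both (31.8%). Over 13841 upstream AUGs of all genes tested for density with such a transcript, 53.3% have the purine and 17.4% both. These shares are a description, and AUGs of 1 leader are not independent. The layout depends on the transcript: among the basic coding transcripts Ddit3 has 0 or 2 upstream AUGs, the one with 0 having no annotated leader. Ppp1r15a has 3 or 7, in transcripts of the same coding length, Ifrd1 1 or 2 and Atf5 2 to 6.

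The genes lie on chromosome 15, 80255184 to 80257541, plus strand (Atf4, ENSMUSG00000042406), chromosome 7, 44812256 to 44816658, minus strand (Atf5, ENSMUSG00000038539), chromosome 10, 127290774 to 127296288, plus strand (Ddit3, ENSMUSG00000025408) and chromosome 7, 45522916 to 45526268, minus strand (Ppp1r15a, ENSMUSG00000040435). Ppp1r15b (ENSMUSG00000046062) lies on chromosome 1, 133131143 to 133139783, plus strand, Ifrd1 (ENSMUSG00000001627) on chromosome 12, 40201567 to 40248504, minus strand, and Ibtk (ENSMUSG00000035941) on chromosome 9, 85687360 to 85749334, minus strand. The files pair counts with symbols only, and these positions come from GENCODE vM21. The coding exons of Ppp1r15b overlap Gm26616 and those of Ifrd1 overlap Gm7008, each on the opposite strand. Whether counting used strand is likewise not stated there, so reads of these pairs may not be separable. GENCODE also holds a second gene record named Ddit3 inside this locus, a coding transcript with no annotated leader, and counts by symbol do not separate the pair. The annotation names no pseudogene of the other 6.

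Which part of a transcript the counts cover matters for these mRNAs, because footprints on frames lying wholly in the leader are translation of the upstream frame and not of the main protein. The sources used here do not state the region counted, so it was examined through base composition. Over 7469 genes, the mean number of T positions per read followed the T content of the coding region with Pearson r of 0.93 for input reads and 0.90 for footprint reads, a correlation across genes, which are not independent replicates. It hardly followed that of the leader (r = 0.06 and 0.07), with r = 0.24 and 0.25 for the 3′ untranslated region. In a joint fit the slope on the coding region was 0.92 T per T in input and 0.90 in footprints, and on the leader -0.01 and -0.01. The counts thus had the composition of coding-region reads. The ratios below are read as footprints on the coding region per input read of that region, and leader footprints were not analysed here. Overlapping frames run 83 (Atf4), 56 (Atf5) and 76 bases (Ppp1r15a) into the coding region, where their footprints cannot be told apart from those of the main frame. The check was made across genes and not for each of the 7. Ddit3 departed from it, with 3.28 T per read in input and 4.86 in footprints against 4.44 per 30 bases of its coding region. Ppp1r15a also departed, with 4.34 T per read in input and 3.95 in footprints against 5.11 per 30 bases of its coding region. For these genes the reading as coding-region counts is less sure.

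Per kilobase of coding region, Atf4 was the most abundant of the 7 in input, at 328 ± 35.8 normalised CPM (mean ± SD, n = 9 lysates over all times), followed by Ifrd1 at 178 ± 51.1. Their ranges did not overlap (261 to 387 and 88.7 to 247). Ppp1r15b followed at 54.2 ± 8.17, again apart from its neighbours. Below it stood Ibtk at 29.2 ± 6.38, Atf5 at 17.8 ± 3.77, Ddit3 at 12.7 ± 2.54 and Ppp1r15a at 7.12 ± 2.69, and each of these overlapped the next in range. In footprints per coding kilobase Ifrd1 stood at 64.3 ± 24.6 and Atf4 at 61.9 ± 13.4, with overlapping ranges. Atf4 was the higher of the pair in 5 of 9 lysates and Ifrd1 in 4, so their order in footprints was not fixed. Ppp1r15b was at 25.5 ± 4.21, Ibtk at 9.5 ± 1.27 and Atf5 at 8.77 ± 3.26, and the ranges of the last 2 overlapped. Ddit3 at 2.97 ± 0.873 and Ppp1r15a at 1.05 ± 0.289 were lowest, from only 16 to 93 and 23 to 135 footprint reads per library.

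All 7 genes carried fewer footprints per input read than the typical gene. The ratio of footprint to input normalised CPM was below 1 for each gene in each of the 9 lysates. Ppp1r15a, Atf4 and Ddit3 were lowest, Ibtk and Ifrd1 came next, and Ppp1r15b and Atf5 were nearest to 1. By edgeR's quasi-likelihood test with Benjamini-Hochberg adjustment, 7 of 7 were lower in footprints and 0 higher, with a median log2 ratio of -1.60, where 40.3% of 10592 genes tested were lower and 35.3% higher, with a median of -0.04. The test had 0 of 7 higher also at an unadjusted p under 0.05 and by DESeq2.

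Among the transcription factors, the ratio of Atf4 ranged from 0.147 to 0.261 over the 9 lysates, with a median of 0.172. The lysates of experiment 2 were the 3 highest, and the fitted log2 ratio was -2.42 (SE 0.0922, edgeR adjusted p = 6.52e-12), which 3.06% of genes undercut. The ratio of Ddit3 ranged from 0.151 to 0.32 over the 9 lysates, with a median of 0.214, for a log2 ratio of -2.10 (SE 0.142, adjusted p = 2.95e-09). That of Atf5 spread widest in absolute terms, from 0.323 to 0.811 over the 9 lysates, with a median of 0.441, for a log2 ratio of -1.05 (SE 0.15, adjusted p = 1.25e-05). The lysates at 60 min of experiment 1 (0.811) and at 20 min of experiment 2 (0.763) were the high ones of Atf5.

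The phosphatase subunits stood apart in their values, a difference with no test of its own. Ppp1r15a, the stress-induced one, had a ratio from 0.0772 to 0.382 over the 9 lysates, with a median of 0.138, and a log2 ratio of -2.80 (SE 0.227, edgeR adjusted p = 2.29e-08), with 1.93% of genes lower. Ppp1r15b, the constitutive one, ranged from 0.328 to 0.579 over the 9 lysates, with a median of 0.529, and its log2 ratio was -1.10 (SE 0.0955, adjusted p = 5.1e-08). The ratio of Ppp1r15a was below that of Ppp1r15b in 9 of 9 lysates, and their ranges overlapped only through the 120 min lysate of experiment 1, where Ppp1r15a reached 0.382. The ratio of Ibtk ranged from 0.261 to 0.445 over the 9 lysates, with a median of 0.328 (log2 -1.60, SE 0.0815, adjusted p = 1.24e-10). That of Ifrd1 ranged from 0.228 to 0.486 over the 9 lysates, with a median of 0.353 (log2 -1.51, SE 0.106, adjusted p = 4.62e-09). Leaving out any lysate kept every gene lower, with adjusted p of at most 8.49e-05 (Atf5).

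**Figure D1:**
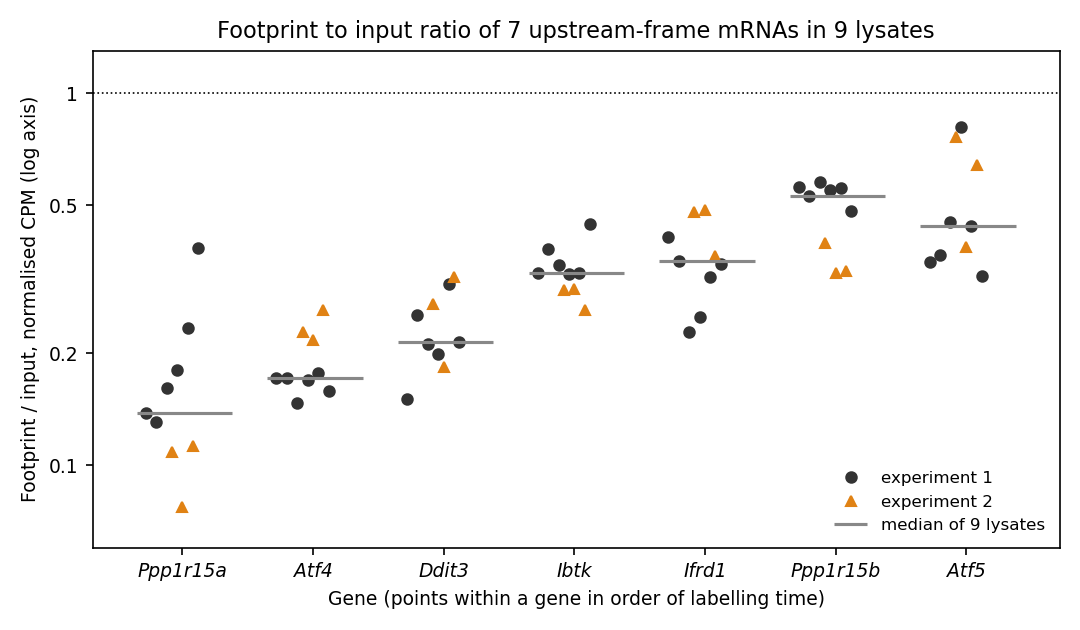
Ratio of footprint to input normalised CPM (log axis) for each gene and lysate, circles for experiment 1 and triangles for experiment 2, in order of labelling time, with a bar at the median of 9 lysates. All points lie below the dotted line at 1, from 0.0772 (Ppp1r15a, 30 min) to 0.811 (Atf5, 60 min).

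Across all genes the median ratio was lower in classes with upstream AUGs in the annotated leader, and all 7 genes lay below the median of their own class. Of 10053 genes with a usable transcript, 5125 had 0 upstream AUGs and a median log2 ratio of 0.16. The median was -0.10 for 1525 genes with 1 upstream AUG and -0.38 for 1821 with more, in both without an out-of-frame overlap of the main start. It was -0.37 for 1582 genes with such an overlapping frame, whatever their number of upstream AUGs. Upstream AUGs in frame with the main start and with no stop before it counted as AUGs but not as overlapping. Ifrd1, in the class with 1 AUG, was at -1.51, under that class's lower quartile of -0.81 and above its lowest 5% (below -2.0). Ibtk and Ddit3 were below the lower quartile of their class (-1.09), and Ppp1r15b stood at that quartile (-1.10, and -0.90 in experiment 1 alone). In the class with an overlapping frame Atf4 and Ppp1r15a were among the lowest 5% (below -2.33), while Atf5 was inside the quartiles (-1.11 to 0.25). The classes differ in coding length (medians 1305 to 1542 bases). Within coding regions of 1000 to 2000 bases the medians were 0.13, -0.10, -0.38 and -0.48. The classes were drawn up after values were seen and carry no test.

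**Figure D2:**
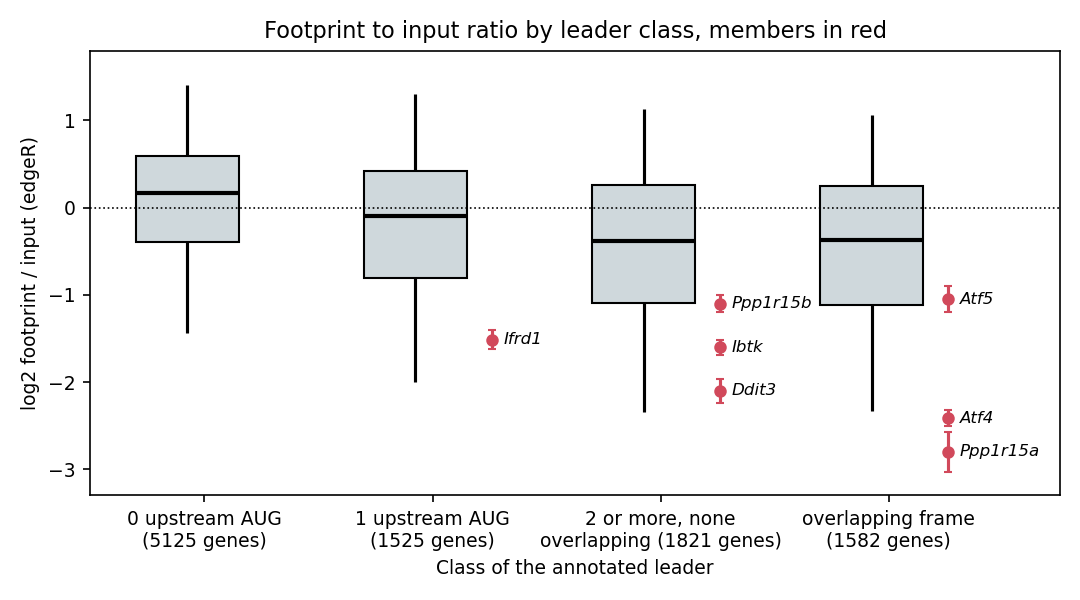
Fitted log2 ratio of footprints to input by leader class: boxes show the quartiles, lines inside them the median and whiskers the 5th to 95th percentiles of all genes, and red points the 7 genes with their standard errors. The class medians run from 0.16 to -0.38, and all 7 points lie below the median of their class.

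Genes before and after these mRNAs in the pathway were read against the 35.3% of all genes higher and 40.3% lower (median -0.04). Of 27 core genes of the response (kinases, eIF2 and eIF2B subunits, start-codon factors), 17 were denser in footprints and 6 sparser (median 0.32). Eif1, which helps the ribosome pick its start codon, had a log2 ratio of 3.36 (edgeR adjusted p = 3.25e-10) and Eif2b3, an eIF2B subunit, of 0.78 (adjusted p = 7.97e-09). The eIF2 kinases Eif2ak4 (GCN2) and Eif2ak3 (PERK) were lower, at -1.43 and -1.46 (adjusted p = 2.01e-10 and 3.98e-10). Of 37 tested genes known as targets of ATF4 and CHOP, 23 were higher and 4 lower (median 0.38). Shmt2, a mitochondrial serine enzyme, stood at 1.23, Slc3a2, the shared chain of amino acid exchangers, at 1.09 and Nars, the asparaginyl-tRNA synthetase, at 0.73, while the cystine transporter Slc7a11 was at -1.30 (adjusted p of at most 7.76e-08). Of 20 other mRNAs known for upstream frames, 5 were higher and 13 lower (median -0.70): Slc35a4, a transporter-family gene, was at -2.02, Polg, the mitochondrial DNA polymerase, at -1.84, Mief1, a mitochondrial fission factor, at -1.82 and Odc1, of polyamine synthesis, at -1.21 (adjusted p of at most 6.27e-10). Cebpb, Eprs, Eif5 and Slc7a1 stand in more than 1 of these lists.

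Over the labelling course Ifrd1 fell in both materials, Ibtk fell in footprints, and none of the other 5 passed the test in either. Slopes are log2 changes per hour of 4sU over 9 libraries of a material (edgeR). In input, 0 of 7 rose and 1 fell, where 0.403% of 9927 genes rose and 5.83% fell. At an unadjusted p under 0.05, 1 of the 7 rose (Ddit3) and 2 fell, and DESeq2's Wald test called 0 and 2. In footprints, 0 of 7 rose and 2 fell, where 7.03% of 10226 genes rose and 13.4% fell. At an unadjusted p under 0.05, 1 of the 7 rose (Ppp1r15a) and 3 fell, and DESeq2 called 0 and 2.

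Ifrd1 in input of experiment 1 stood at 286, 299, 333, 212, 153 and 119.7 normalised CPM at 0, 20, 40, 60, 90 and 120 min, and in experiment 2 at 268, 243 and 249.8 at 20, 30 and 40 min. In footprints it stood at 118, 106, 76, 53.2, 48.9 and 41.6 and at 129, 118 and 91. The level held through 40 min in input and was lower from 60 min on, while in footprints the 40 min lysates were already below the 20 min ones in both experiments. The slope was -0.71 per hour in input (SE 0.116, edgeR adjusted p = 0.0122) and -0.93 in footprints (SE 0.121, adjusted p = 0.0011). The input call was lost without the 90 min lysate (-0.67, adjusted p = 0.0636) or the 120 min lysate (-0.64, adjusted p = 0.238), and the footprint call held without any lysate (largest adjusted p 0.0364).

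Ibtk in footprints of experiment 1 stood at 38.7, 42.8, 39.7, 35.2, 36 and 29.8 normalised CPM from 0 to 120 min and in experiment 2 at 45.8, 44.2 and 34.9. The 120 min library was the lowest, and the slope was -0.26 per hour (SE 0.0829, edgeR adjusted p = 0.0425). This call was lost with experiment as a replicate block (-0.24, adjusted p = 0.0536), in experiment 1 alone (-0.20, adjusted p = 0.0729) and without the 20, 40, 90 or 120 min lysate of experiment 1 or the 20 or 30 min lysate of experiment 2 (adjusted p = 0.0615 to 0.456). In input Ibtk stood at 118, 113, 115, 108, 109 and 66.9 in experiment 1 and at 155, 149 and 134 in experiment 2, for a slope of -0.44 (adjusted p = 0.0898). The input slope passed with experiment as a replicate block (-0.31, adjusted p = 0.0400), by DESeq2 (adjusted p = 0.0295) and without the 0 min lysate (adjusted p = 0.0459).

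Footprints of Ppp1r15a and Ddit3 had the highest slopes of the 7, though neither passed in the main fit over all 9 footprint libraries. Ppp1r15a footprints in experiment 1 stood at 1.54, 1.52, 1.83, 2.04, 2.17 and 3.34 normalised CPM from 0 to 120 min and in experiment 2 at 2.18, 1.63 and 2.45. Its input stood at 11.2, 11.6, 11.3, 11.4, 9.28 and 8.72 in experiment 1 and, above all of these, at 20.1, 21.2 and 21.8 in experiment 2. The footprint slope of Ppp1r15a was 0.44 per hour (SE 0.163, edgeR adjusted p = 0.0733) and its input slope -0.52 (SE 0.275, adjusted p = 0.246). The footprint slope passed with experiment as a replicate block (0.53, adjusted p = 0.0303) and in experiment 1 alone (0.55, adjusted p = 0.0232). Ddit3 footprints stood at 0.97, 1.1, 1.32, 1.42, 1.97 and 1.93 in experiment 1 and at 1.46, 1.12 and 2.23 in experiment 2, from 16 to 93 reads. Its slope of 0.44 (SE 0.212, adjusted p = 0.157) passed in experiment 1 alone (0.54, adjusted p = 0.0365). With experiment as a replicate block it did not pass (0.57, edgeR adjusted p = 0.0608). Ddit3 input stood at 6.43, 4.33, 6.23, 7.14, 6.41 and 9.04 and at 5.38, 6.11 and 6.97, with a slope of 0.31 (SE 0.135, adjusted p = 0.186).

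Atf4 input stood at 376, 363, 406, 319.8, 274 and 330.5 normalised CPM in experiment 1 and at 347, 330.2 and 355 in experiment 2, with a slope of -0.16 per hour (SE 0.0805, edgeR adjusted p = 0.24). Atf4 footprints stood at 64.4, 62.3, 59.7, 54.3, 48.4 and 52.2 and at 79.1, 71.6 and 92.6, with a slope of -0.31 (SE 0.129, adjusted p = 0.107). All 3 footprint libraries of experiment 2 lay above all 6 of experiment 1. The footprint slope of Atf4 passed in experiment 1 alone (-0.19, adjusted p = 0.049) and without the 40 min lysate of experiment 2 (-0.29, adjusted p = 0.0349). Ppp1r15b stood at 124, 113, 88.4, 107, 98.9 and 99.2 in input of experiment 1 and at 136, 138 and 118 in experiment 2, and in footprints at 69.5, 59.6, 51.2, 58.4, 55 and 47.7 and at 53.7, 45.3 and 39.4. Ppp1r15b had slopes of -0.22 in input and -0.14 in footprints (adjusted p = 0.223 and 0.394). In experiment 1 neither course of Ppp1r15b ran in 1 direction, while its footprints in experiment 2 fell at each step. Atf5, the less abundant relative of Atf4, stood at 17.8, 17.6, 12.2, 17.1, 12.8 and 20.8 in input of experiment 1 and at 11.6, 12.8 and 14 in experiment 2, and in footprints at 6.26, 6.44, 5.5, 13.9, 5.65 and 6.74 and at 8.89, 4.92 and 8.96. Atf5 had slopes of 0.14 and 0.04 (adjusted p = 0.552 and 0.929).

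**Figure D3:**
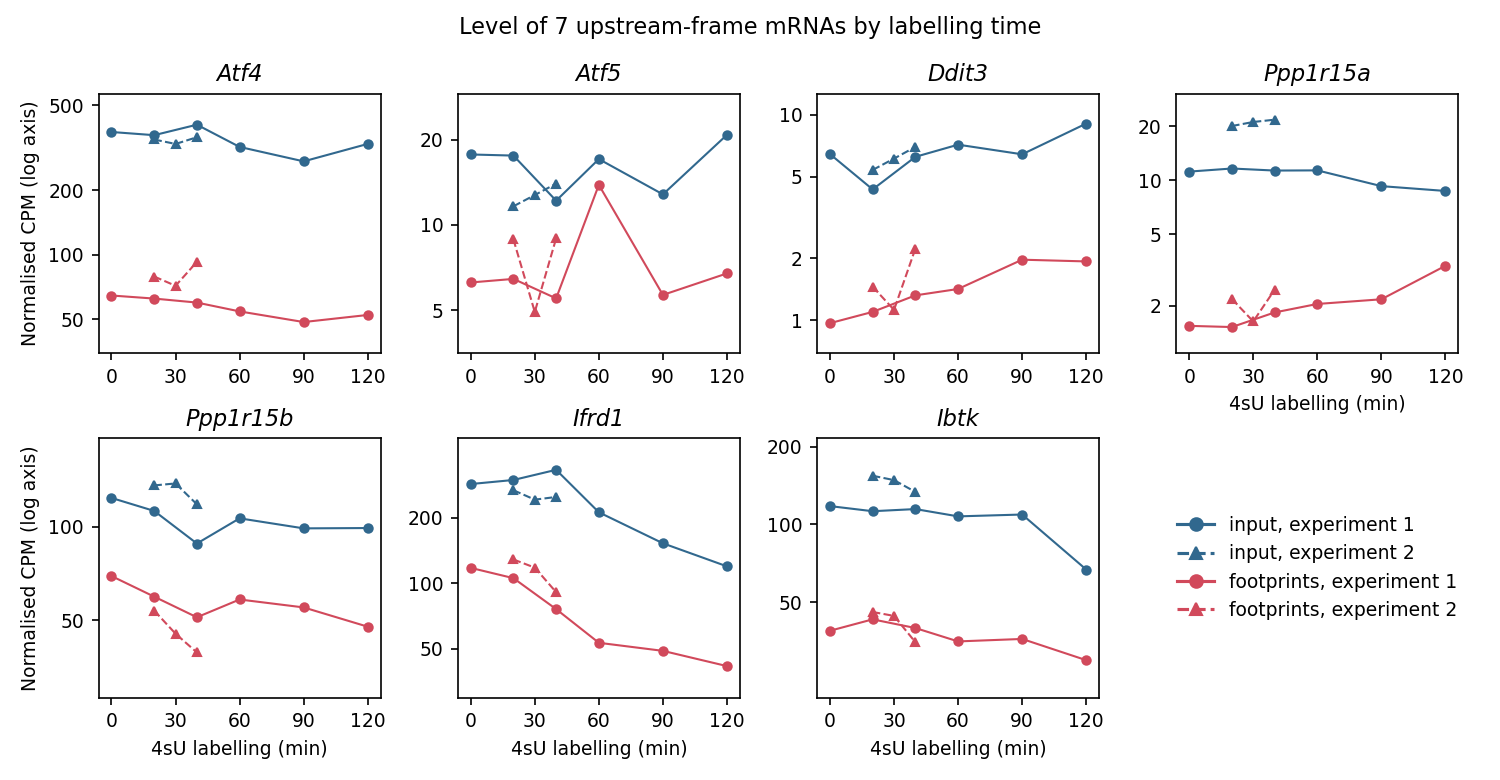
Normalised CPM (log axis, scaled to each gene) against minutes of 4sU in input (blue) and footprints (red), circles and full lines for experiment 1 and triangles and dashed lines for experiment 2. Ifrd1 ends at 119.7 in input and 41.6 in footprints at 120 min, from 286 and 118 at 0 min.

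For the slopes of the pathway lists, the background over all genes was 0.403% rising and 5.83% falling in input and 7.03% and 13.4% in footprints. No list was tested against that background. The input calls rested on the 90 and 120 min lysates. Without the 120 min lysate 0 genes of all passed in input, and 3 rose and 61 fell in footprints. Without the 90 min lysate 1 gene rose and 15 fell in input. Of the 27 core genes 0 rose and 1 fell in input, the 1 being Eif2ak3 (-0.50 per hour, edgeR adjusted p = 0.0247). In footprints 2 rose (Eif2s3x, an eIF2 subunit, at 0.29 and Eif1 at 0.37) and 2 fell (Eif2ak3 at -0.48 and the adaptor Nck1 at -0.48). Of the ATF4 and CHOP targets 1 of 35 rose in input, the stress regulator Nupr1 (0.37), and 2 fell, the glutathione-degrading enzyme Chac1 (-1.31) and Herpud1 of endoplasmic reticulum quality control (-0.64). In footprints 4 of 37 targets rose and 4 fell, among them Psat1 of serine synthesis (0.22), Eif4ebp1, a brake on cap binding (0.37), Slc3a2 (-0.44) and Chac1 (-0.76). Of the other upstream-frame mRNAs 0 of 19 rose and 1 fell in input (Mdm2, the p53 ubiquitin ligase, at -0.77), and 1 rose and 3 fell in footprints (Sat1, of polyamine breakdown, at 0.45, the antizyme inhibitor Azin1 at -0.51, the kinase Mapk6 at -0.47 and Mdm2 at -0.95).

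The ratio of footprints to input was not shown to change with labelling time for any of the 7. By edgeR 0 of 7 rose and 0 fell, where 0.0% of 10592 genes rose and 0.0% fell. At an unadjusted p under 0.05, 141 genes rose and 114 fell, 1 of the 7 among those that rose, and DESeq2's Wald test called 3 and 6 genes, with 0 of the 7. That 1 was Ppp1r15a, whose ratio in experiment 1 was 0.138, 0.131, 0.162, 0.18, 0.234 and 0.382 from 0 to 120 min, and 0.108, 0.0772 and 0.113 in experiment 2. Its slope was 0.96 per hour (SE 0.31, unadjusted p = 0.00575, adjusted p = 1). With experiment as a replicate block the slope was 0.95 (adjusted p = 0.135). The other 6 slopes lay between -0.21 (Ifrd1) and 0.18 (Ibtk), each with adjusted p = 1.

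The ratio differed between the experiments for 4 of the 7. In a fit of material by experiment over all 18 libraries, added after values were seen, 2 of 7 were higher in experiment 2 and 2 lower, where 12.4% of 10592 genes were higher and 11.9% lower. Atf4 had ratios of 0.147 to 0.177 in experiment 1 (median 0.171, 6 lysates) and 0.228, 0.217 and 0.261 in experiment 2, groups that did not overlap (log2 difference 0.50, SE 0.0973, edgeR adjusted p = 0.00384). Ppp1r15b went the other way without overlap, with 0.481 to 0.579 in experiment 1 (median 0.552, 6 lysates) and 0.395, 0.328 and 0.333 in experiment 2 (log2 difference -0.63, SE 0.100, adjusted p = 0.00199). Ppp1r15a was also lower without overlap, with 0.131 to 0.382 in experiment 1 (median 0.171, 6 lysates) and 0.108, 0.0772 and 0.113 in experiment 2 (log2 difference -0.97, SE 0.262, adjusted p = 0.0165). Ifrd1 was higher with overlap, with 0.228 to 0.411 in experiment 1 (median 0.333, 6 lysates) and 0.48, 0.486 and 0.364 in experiment 2 (log2 difference 0.50, SE 0.167, adjusted p = 0.0414). The differences of Ibtk (-0.32), Ddit3 (0.19) and Atf5 (0.39) did not pass (adjusted p = 0.0687, 0.603 and 0.324). Experiment 2 held only 20 to 40 min and was deeper. With the 20 and 40 min lysates alone Atf4 and Ppp1r15b passed, while Ppp1r15a (-0.48, adjusted p = 0.176) and Ifrd1 (0.49, adjusted p = 0.134) did not.

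Newly made RNA was read from T-to-C conversions, the trace of 4sU after chemical conversion, and a read counted as converted with at least 1. Ppp1r15a, Atf4, Ppp1r15b and Ddit3 were labelled more than at least 95.1% of the genes tested in input, Ifrd1 more than 80.2%, and Ibtk (56.7%) and Atf5 (41.3%) lay near the middle. In input the converted share of Atf4 was 0.223%, 7.31%, 13.6%, 24.5%, 25.5% and 43% at 0, 20, 40, 60, 90 and 120 min of experiment 1 and 4.51%, 9.72% and 11.9% at 20, 30 and 40 min of experiment 2. That of Ppp1r15b was 0.338%, 3.85%, 13%, 23%, 34.6% and 52.6% and 2.19%, 6.98% and 8.88%, the highest of the 7 at 120 min. For all genes together the share was 0.289% at 0 min and 8.07% at 120 min.

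Ppp1r15a input reached 40.7% (95% Wilson interval 28.7 to 54, 54 reads) at 120 min and Ddit3 input 35.7% (95% Wilson interval 24.5 to 48.8, 56 reads). Ifrd1 reached 22% (95% Wilson interval 19.2 to 25.1, 741 reads), Atf5 11.6% (95% Wilson interval 7.17 to 18.3, 129 reads) and Ibtk 10.4% (95% Wilson interval 7.8 to 13.7, 414 reads). These intervals cover counting error only, and those of Ppp1r15a, Ddit3 and Atf5 are wide because few reads stand behind them. Without label the shares were 0.223% for Atf4, 0.338% for Ppp1r15b, 0.195% for Ifrd1, 0.119% for Ibtk, 0.787% for Atf5 and 2.5% for Ppp1r15a (2 of 80 reads). Ddit3 had 0 of 46 reads, which by the limit of 3 counts allows a share of up to 6.52% (upper 95% Wilson bound 7.71%). At 20 and 40 min, where both experiments have a lysate, Atf4 input was 5.91% ± 1.97 (SD, n = 2) and 12.8% ± 1.23 (SD, n = 2).

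Relative labelling was tested as a gene's log2 odds of conversion less the median gene of that library, over the 8 labelled libraries of a material (limma against 0). In input 5 of 7 were above the median gene and 0 below, where 33.5% of 8276 genes were above and 34.0% below. Ppp1r15a stood at 3.40 (SE 0.189, limma adjusted p = 5.42e-08), above 98.6% of genes, Atf4 at 2.95 (SE 0.147, adjusted p = 2.39e-08) and Ppp1r15b at 2.69 (SE 0.175, adjusted p = 1.67e-07). Ddit3 stood at 2.59 (SE 0.224, adjusted p = 1.6e-06) and Ifrd1 at 1.20 (SE 0.148, adjusted p = 2.83e-05). Ibtk at 0.18 and Atf5 at -0.31 did not pass (adjusted p = 0.43 and 0.342). In footprints the same 5 of 7 were above and 0 below, where 30.7% of genes were above and 30.4% below: Ppp1r15a at 3.55, Ddit3 at 3.18, Atf4 at 2.87, Ppp1r15b at 2.58 and Ifrd1 at 1.15 (limma adjusted p of at most 0.000337). At an unadjusted p under 0.05 the counts were 5 above and 0 below in both materials.

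Atf5 in footprints stood at 0.23 (adjusted p = 0.373), from 0 to 7 converted reads per library, and its call depended on the measure. It passed with a pseudocount of 2 (0.75, limma adjusted p = 0.00551), per T position (0.58, adjusted p = 0.0348) and with the unlabelled share subtracted (1.05, adjusted p = 0.0274). Beside the 33.5% of all genes above and 34.0% below in input, 11 of 18 other upstream-frame mRNAs were above the median gene in input and 3 below, with Mief1 at 2.26, Cdkn1a, the cell-cycle inhibitor p21, at 2.25 and Mdm2 at 2.19. Of the ATF4 and CHOP targets 15 of 32 were above and 13 below, with Chac1 at 3.57, the transcription factor Atf3 at 3.06 and Herpud1 at 2.75. Of the core genes 5 of 27 were above and 13 below, with Nck1 at 2.61 and Eif2b5, the catalytic eIF2B subunit, at -1.04.

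For 5 of the 7, fewer of the footprint reads than of the input reads were converted, as for most genes. The share of Atf4 footprints was 0.342%, 3.53%, 10.5%, 15.2%, 23.2% and 33.7% from 0 to 120 min of experiment 1 and 1.47%, 3.35% and 4.27% in experiment 2, below its input in all 8 labelled lysates. The shares of Ppp1r15b, 0.19%, 1.58%, 8.56%, 15.8%, 33.3% and 44.8% and 0.588%, 1.87% and 3.9%, and those of Ifrd1, 0.187%, 0.744%, 3.48%, 5.84%, 8.34% and 18.3% and 0.328%, 0.932% and 1.69%, were also below input in 8 of 8, and so were those of Ibtk. Ibtk footprints reached 1.67% at 40 min and 6.73% at 120 min of experiment 1. Ppp1r15a was below its input in 6 of 8, reaching 32% (95% Wilson interval 20.8 to 45.8, 50 reads) at 120 min. Ddit3, at 34.5% (95% Wilson interval 19.9 to 52.7, 29 reads), was below in 5 of 8, all 3 of experiment 2 among them, and so was Atf5, at 6.93% (95% Wilson interval 3.4 to 13.6, 101 reads). By edgeR 5 of 7 were lower in footprints and 0 higher, where 59.4% of 8276 genes were lower and 0.145% higher. At an unadjusted p under 0.05 the counts were 5 and 0, and limma on the same log odds had 4 lower and 0 higher.

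The log2 odds ratio of conversion, footprints against input, was -1.09 for Ibtk (SE 0.275, edgeR adjusted p = 0.000415), -1.0 for Atf4 (SE 0.207, adjusted p = 1.67e-05), -0.99 for Ifrd1 (SE 0.222, adjusted p = 7.06e-05) and -0.98 for Ppp1r15b (SE 0.233, adjusted p = 0.000178). All genes together had a median of -0.79, so these 4 lay close to it. Ppp1r15a at -0.79 (adjusted p = 0.0499) lost its call under several alternatives, among them experiment 1 alone (-0.49, adjusted p = 0.319) and leaving out the 20, 40, 90 or 120 min lysate of experiment 1 or the 30 or 40 min lysate of experiment 2 (adjusted p = 0.0586 to 0.212). Atf5 at -0.70 and Ddit3 at -0.24 did not pass (adjusted p = 0.181 and 0.54). Relative to the median over genes of each lysate, 0 of 7 differed in either direction by limma, with 0 of 7 at an unadjusted p under 0.05, where 40 genes were higher and 46 lower. In the lists, 21 of 27 core genes, 20 of 32 ATF4 and CHOP targets and 10 of 18 other upstream-frame mRNAs were lower by edgeR and 0 higher, beside 59.4% and 0.145% of all genes.

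The size differed between the experiments in the values, for all genes as well as for these, a difference that was not tested. Over all genes the edgeR median was -0.455 in experiment 1 alone and -0.79 over all labelled lysates. At 40 min of experiment 1, 1.29% of all footprint reads and 2.16% of all input reads were converted. In experiment 2 these shares were 0.872% and 1.99%. For Atf4 the log2 odds ratio averaged -0.62 ± 0.359 over the 5 labelled lysates of experiment 1 and -1.63 ± 0.0328 over the 3 of experiment 2 (SD). For Ifrd1 it was -0.48 ± 0.157 and -1.81 ± 0.227, and in experiment 1 alone Ifrd1 did not pass (edgeR -0.45, adjusted p = 0.0567). For Ddit3 it was 0.74 ± 1.03 and -2.10 ± 0.673, from 0 to 10 converted footprint reads per library. In experiment 1 a delay was read as the time since the input course, joined by straight lines, had the share that footprints have now, after subtraction of the unlabelled share. It was 11, 10.3, 17.3, 32.6 and 16.1 min for Atf4 at 20, 40, 60, 90 and 120 min. The delay was 12.1, 9.36, 14, 2.93 and 12.8 min for Ppp1r15b, and 9.15, 5.65, 12.9, 30.7 and 10.2 min for Ifrd1. Over all genes it was 14.5, 13.6, 17, 28.1 and 26.5 min. At 90 min Atf4 and Ifrd1 were above the value of all genes and Ppp1r15b far below it, and at 120 min all 3 were below. With 1 library per time and material none of these values has a test. Experiment 2, with no 0 min lysate, was given no delay: there Atf4 footprints at 40 min (4.27%) were still below Atf4 input at 20 min (4.51%), and Ifrd1 footprints at 40 min (1.69%) lay between Ifrd1 input at 20 min (1.16%) and 30 min (3.73%). The delays of experiment 1 at 40 min, 10.3 min for Atf4 and 5.65 min for Ifrd1, are shorter than these shares would give. The same held for all genes together, with 13.6 min in experiment 1 at 40 min. In experiment 2 their footprints at 40 min (0.872%) lay just above their input at 20 min (0.813%). Only genes with at least 500 reads in every footprint library of experiment 1 were given a delay.

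**Figure D4:**
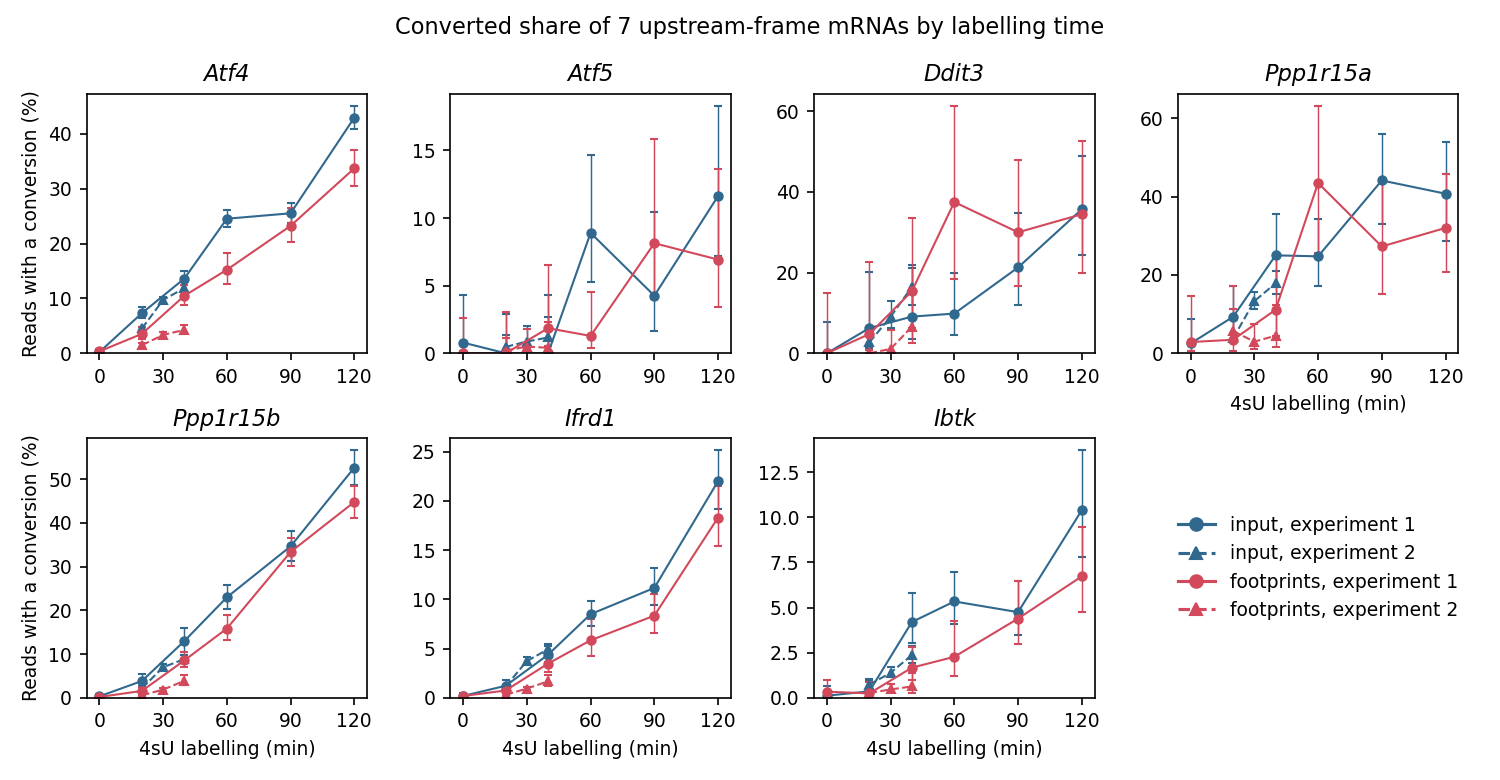
Share of reads with at least 1 conversion against minutes of 4sU, in input (blue) and footprints (red), with 95% Wilson intervals as bars, circles for experiment 1 and triangles for experiment 2. At 120 min Ppp1r15b reaches 52.6% in input and 44.8% in footprints, and Ibtk 10.4% and 6.73%.

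The T content of the reads, which also enters the converted share, differed between materials for 4 of the 7. Taken as footprint minus input of a lysate, less the median over genes (limma against 0), 1 of 7 was higher in footprints and 3 lower, where 14.7% of 9382 genes were higher and 14.4% lower. Ddit3 had 3.28 ± 0.325 T positions per read in input and 4.86 ± 0.956 in footprints (SD, n = 9), a difference of 1.55 (SE 0.257, limma adjusted p = 0.00143) above that of 99.9% of genes. Its coding region holds 4.44 T per 30 bases, a value between the materials. Ddit3 has few reads, and its T content could not be tested with a minimum mean of 200 reads or in experiment 1 alone. Atf5 had 5.46 ± 0.216 in input and 4.67 ± 0.143 in footprints, a difference of -0.82 (SE 0.0628, adjusted p = 1.57e-05). Atf4 (-0.27, adjusted p = 0.00341) and Ppp1r15b (-0.21, adjusted p = 0.0169) were slightly lower in footprints. Ppp1r15a (-0.41), Ifrd1 (-0.12) and Ibtk (-0.09) did not pass. The part of T content in the converted shares of Ddit3 and Atf5 was not tested beyond the count per T position. On that scale -1.009 was the log2 odds ratio of Ddit3 (limma adjusted p = 0.0718) and -0.37 that of Atf5 (adjusted p = 0.44). The same limma test per read gave -0.33 for Ddit3 (adjusted p = 0.54) and -0.38 for Atf5 (adjusted p = 0.415).

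**Figure D5:**
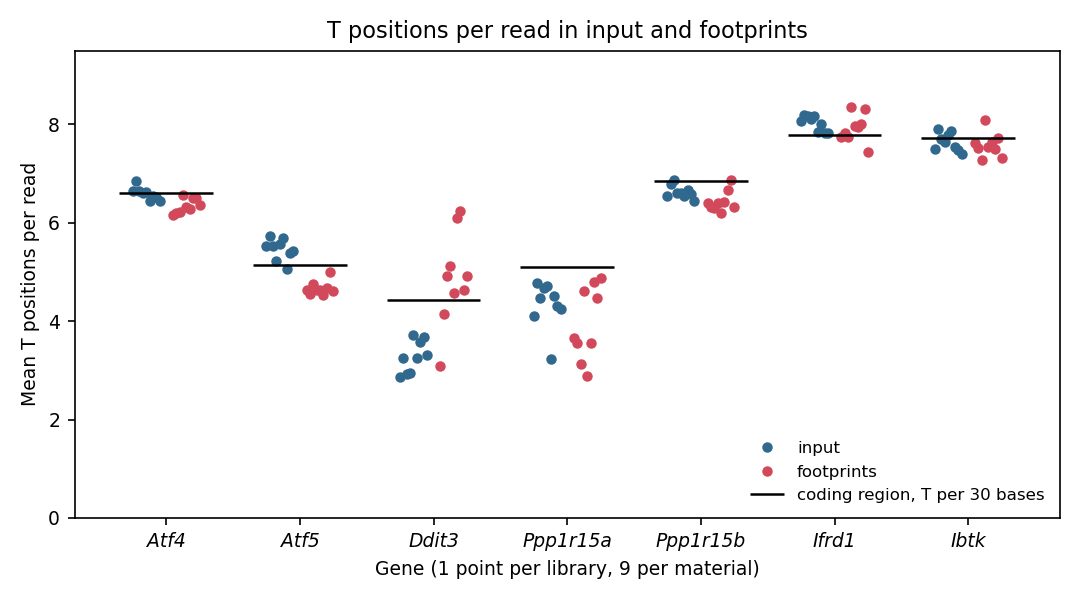
Mean T positions per read for each gene, 1 point per library (9 per material) in input (blue) and footprints (red), with a line at the T content of the coding region per 30 bases. Footprints of Ddit3 lie above its input (4.92 against 3.25 as medians) and those of Atf5 below (4.63 against 5.53).

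The 7 genes did not share 1 profile across the libraries. After removal of the mean of each material, over 18 libraries that share depth and experiment, Pearson r of log2 normalised CPM was 0.73 between Atf4 and Ifrd1 and 0.70 between Ifrd1 and Ibtk. It was -0.63 between Ddit3 and Ifrd1 and 0.25 between Ddit3 and Ppp1r15a. Among 8820 genes, those most like Atf4 were Jdp2 (r = 0.95), Pstpip1 (0.91) and Oser1 (0.90), and those most like Ifrd1 were Gas2l3 (0.96), Spred1 (0.96) and Fpgt (0.95). Most like Ibtk were Nkrf (0.93), Fastkd1 (0.93) and Ubxn7 (0.93), and most like Ppp1r15b were Pcnx (0.88), Extl3 (0.87) and Msl2 (0.86). Ppp1r15a was nearest to Syne1 (0.86) and Herc2 (0.84), Atf5 to Tysnd1 (0.92), Tmem161a (0.89) and Kti12 (0.88), and Ddit3 to RP23-349D13.3 and Eif4g1 (0.87 each) and Tpm1 (0.85).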

How the data were processed

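Measured were 18 libraries from 9 lysates of RAW264.7 cells, 1 input and 1 footprint library a lysate. The deposited files hold whole-number read counts per gene symbol, with a column for each combination of T positions (up to 20) and T-to-C conversions (up to 3) in a read. The headings do not say so; this reading was taken from their ranges and from the values, in which conversions exceeded T positions in 0 reads. The aligner was Bowtie 0.12.8 and the build mm10, per the submitters' processing notes. The counting program, annotation, strand and counted region are not stated there. Per the labels' protocols, input was fragmented in alkali, footprints came from RNase I digestion and monosome fractions, fragments of 25 to 35 bases were taken, and ribosomal RNA was depleted. A sum over columns gave the total count, and a read with at least 1 conversion was converted.

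Counts were fitted over all genes in R 4.3.3 with edgeR 4.0.16 (TMM, filterByExpr, quasi-likelihood test): footprints against input with labelling time as a factor, the slope per hour in each material, their product, and converted against unconverted reads in edgeR's design for methylation counts. Log2 odds of conversion (pseudocount 0.5) and mean T per read were tested against 0 with limma 3.58.1. Genes entered the conversion tests from an average of 50 reads a library and 50 converted reads in all, and the T test from the same average. Adjusted p-values are Benjamini-Hochberg over all genes, called under 0.05, and every test is two-sided. On simulated counts these steps recovered 94 to 100% of 200 changed genes (density 100%, ratio slope 97.5%). Of their calls, 0.995 to 8.74% were false, above 5% for density (6.10%), the footprint slope (5.21%) and relative labelling in footprints (8.74%). Recovery at read counts as low as those of Ddit3 and Ppp1r15a, or at the spread between the replicate libraries here, was not tested. Alternatives were DESeq2 1.42.0, no filter, blocks by experiment or lysate, experiment 1 alone and leaving out each lysate.

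The protocols pair the input and footprint library of a lysate. Deviations from the group means correlated within lysates at r = 0.12 to 0.76, and in 4 of 9 the partner was the best match. Deviations of experiment 2 from experiment 1 at 20 and at 40 min also went together (r = 0.86 for input, 0.78 for footprints). Replicate libraries of a time differed far beyond counting noise (chi-square per degree of freedom 50.4 to 65.5), so none was merged. Transcripts came from GENCODE vM21 (GRCm38, the assembly also called mm10), of which 12967 of 14002 listed genes had a coding transcript used here. The 7 genes and the pathway lists were chosen with earlier results of these data known, and the leader classes, start contexts, sequence windows, region check, delay and comparison of experiments were added after values were seen. All 7 genes were named throughout, with up to 4 of each list by smallest adjusted p and the 3 genes most like each of the 7, except that 1 such gene and 1 sequence window are not reported here.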

Additional observations from a re-analysis of the deposited data

Results flagged for a closer look

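The difference in the log2 ratio of footprints to input, experiment 2 minus experiment 1, passed edgeR's test for 4 of the 7 genes. It was -0.97 for Ppp1r15a, -0.63 for Ppp1r15b, 0.50 for Ifrd1 and 0.50 for Atf4, beside 12.4% of all genes higher and 11.9% lower. With the 20 and 40 min lysates alone Ppp1r15b and Atf4 still passed, while Ppp1r15a (-0.48, adjusted p = 0.176) and Ifrd1 (0.49, adjusted p = 0.134) did not. Input of Ppp1r15a went the opposite way to its ratio: all 3 libraries of experiment 2 lay above all 6 of experiment 1. Its footprints averaged 2.07 normalised CPM in experiment 1 and 2.09 in experiment 2. Depth and the set of labelling times also differed between the experiments, and their part in these differences was not tested beyond the 20 and 40 min lysates. No lysate stood far from the others by Dixon's criterion in 21 groups of member values checked, a criterion that chance meets in about 1 of 20 groups.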

How the results depend on the processing

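Over all alternatives, 728 member values kept their direction and their side of the threshold, 26 lost a call, 11 gained a call and 22 changed sign. Of 7 genes, 7 stayed lower in footprints in every alternative. For conversion in footprints against input (5 of the 7 lower, 12 genes higher, 4913 lower), the counts relative to the lysate median were 0 of the 7, 40 and 46, with Atf5 at 0.46, Ddit3 at 0.51 and Ppp1r15a at 0.064. In experiment 1 alone they were 3 of the 7, 30 and 1991, and per T position 7 genes were higher. Leaving out lysates gave 4 to 5 of the 7, 7 to 13 genes higher and 3442 to 5299 lower, with Ddit3 at -0.61 to 0.081. For the footprint slope (719 genes rose), experiment as a replicate block left 1 of the 7 higher and 1 lower, experiment 1 alone gave 2 of the 7 higher and 1083 genes rising, and no filter 271 genes, with Atf5 at -0.0026. Leaving out lysates gave 1 to 3 of the 7 lower, 3 to 1084 genes rising and 61 to 1521 falling, with Atf5 at -0.077 to 0.23; the 3 and 61 came without the 120 min lysate. For the input slope (40 genes rose, 579 fell), DESeq2's Wald test and the replicate block each gave 2 of the 7 lower, with 347 and 382 genes rising and 938 and 1137 falling. DESeq2 size factors gave 62 rising and no filter 26. Leaving out lysates gave 0 to 2 of the 7 lower, 0 to 97 genes rising and 0 to 678 falling, with Atf5 at -0.17 to 0.26; without the 120 min lysate no gene passed. For the ratio slope, DESeq2's Wald test gave 3 genes higher and 6 lower, the experiment block and experiment 1 alone each 1 and 2, the lysate block 1 higher, and leaving out lysates 0 to 2 and 0 to 4. Experiment 1 alone put Atf5 at 0.030 and Ppp1r15b at -0.072, and leaving out lysates Atf5 at -0.30 to 0.36, Ddit3 at -0.021 to 0.41 and Ibtk at -0.0033 to 0.23. Relative labelling of Ibtk in footprints was -0.023 with a pseudocount of 2, -0.19 per T position, -0.37 with the unlabelled share subtracted and -0.044 to 0.094 when lysates were left out. In input Ibtk was -0.013 per T position and Atf5 0.16 with the larger pseudocount. For T content, 0 of the 7 were higher with at least 200 reads and in experiment 1 alone, where 736 genes were higher and 771 lower, against 1378 and 1350. For the difference between experiments, the 20 and 40 min lysates alone gave 853 genes higher, against 1313. The lysate block changed no call of the 7 in density, conversion or ratio slope. The causes were not tested. Few reads limit Ddit3, Ppp1r15a and Atf5.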
